A study of Mus musculus with 8 samples.

Results

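The BBSome is a coat complex of 8 subunits, and the genes described here are those subunits (Bbs1, Bbs2, Bbs4, Bbs5, Bbs7, Bbs9, Ttc8 and Bbip1) with 2 partners, Arl6 and Lztfl1. They were taken by symbol from the 23432 genes listed in each of 8 mouse skin RNA-seq libraries, and all 10 were present and passed the filter on low counts in each comparison. They were taken by name, without a threshold on a measured value, but with earlier results of these data known. In a ciliated cell the BBSome is drawn to membranes by the small GTPase Arl6 and carries membrane proteins along and out of the primary cilium on intraflagellar transport (IFT) trains. Bbs2, Bbs7 and Bbs9 form a core onto which the other subunits are built, and Lztfl1 restrains entry of the complex into the cilium. Inherited loss of these genes gives Bardet-Biedl syndrome, a ciliopathy, and in skin the primary cilium is the organelle through which Hedgehog signals reach epidermal and hair follicle progenitors.

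The libraries fell into 4 groups of 2. At E16.5, epithelial cells of back skin carrying the K14-H2BGFP reporter were enriched by FACS from control embryos and from embryos of genotype MOFfl/fl/K14Cre, named MOF cKO here. At P0.5, epidermis was taken off the dermis with dispase and lysed whole, from control pups and from pups of genotype Kansl1fl/fl/K14Cre, named Kansl1 cKO. MOF acetylates histone H4 at lysine 16, and Kansl1 is a subunit of the NSL complex, 1 of the complexes that contain MOF. Cre was driven by the Krt14 promoter, so deletion was limited to Krt14-expressing epithelium and its descendants. The 2 Kansl1 alleles lose exon 3, and controls were littermates whose genotype the labels give only as control. The mice were of mixed C57Bl/6J and CD-1 background, and both sexes were used. The labels number 2 libraries per group and do not say from which animals or litters they came, so p-values measure the spread between these libraries.

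Reads on genes numbered between 22484018 and 27561688 per library at E16.5 and between 9108709 and 19774643 at P0.5. A single count was worth 0.0326 to 0.0502 CPM (counts scaled to a common library total with edgeR's TMM factors) in the MOF experiment and 0.0484 to 0.115 CPM in the Kansl1 experiment. The targeted gene of the MOF experiment, listed as Kat8, stood at 14.4 and 14.7 CPM in control and 12.4 and 13.9 CPM in the libraries labelled MOF cKO (log2 fold change -0.14, standard error 0.179, adjusted p = 0.554). Counts per gene do not separate deleted from kept exons, so Kat8 does not check the MOF cKO label. Kansl1 stood at 40.7 and 48.2 CPM in control and at 31.4 and 30.6 CPM in Kansl1 cKO (log2 fold change -0.52, adjusted p = 0.242), also counted over the whole gene. The 6 epithelial markers summed to between 21607 and 33902 CPM in every library. By Xist and Ddx3y, E16.5 control replicate 1 had the female pattern and the other 3 E16.5 libraries the male pattern, and P0.5 control replicate 2 alone had the male pattern at P0.5.

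MOF cKO was compared with control at E16.5 to ask how the BBSome genes respond in sorted epithelium. Of the 10 genes, 6 fell (Bbs1, Bbs9, Arl6, Ttc8, Bbs4 and Bbs5), with an adjusted p no higher than 0.01 and a change of more than 1.5-fold in edgeR's quasi-likelihood test, and 0 rose. Of all 13956 genes tested, 9.59% were called down (1338 down and 1395 up, or 2743 down and 769 up with scaling by library size alone). In 9 of the 10 genes the MOF cKO pair of libraries lay under the control pair, the male control library included, which held for 37.7% of all genes. The median log2 fold change of the 10 genes was -1.95, beside -0.02 over all genes tested. DESeq2, the tool of the study, called 7 of the 10 down, adding Bbs2. Of all 14818 genes it tested, it called 1735 down and 1781 up. In bulk RNA, fewer cells of a type and less RNA per cell cannot be told apart.

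Of the 3 core subunits, Bbs9 fell and Bbs2 and Bbs7 were not called. Bbs9 stood at 14.2 and 13.0 CPM in control and at 1.05 and 2.07 CPM in MOF cKO, 11.5% of the control mean (log2 fold change -3.10, standard error 0.358, adjusted p = 0.000979). Bbs2 stood at 12.8 and 14.2 CPM in control and at 7.33 and 5.93 CPM in MOF cKO, 49.1% of control. Its log2 fold change of -1.03 (standard error 0.227) missed the threshold at an adjusted p of 0.0110 and passed it in DESeq2 at 0.00536. Bbs7 had the widest control pair, 8.41 and 5.34 CPM, against 3.36 and 3.60 CPM in MOF cKO (log2 fold change -0.98, 95% confidence interval -1.79 to -0.17, adjusted p = 0.0588). The log2 fold change of Bbs7 ran from -1.27 to -0.62 without 1 library each. Thus the MOF cKO pair lay under the control pair for each core subunit, as it did for 37.7% of all genes. Bbs9 alone of the 3 was called.

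The 4 subunits Bbs1, Ttc8, Bbs4 and Bbs5, which join the core, all fell. Bbs1, the subunit that binds Arl6, stood at 13.9 and 15.3 CPM in control and at 1.31 and 1.65 CPM in MOF cKO, where the raw counts were 26 and 39 against 427 and 425. This was 10.1% of control, the lowest share among the 10 genes (log2 fold change -3.30, standard error 0.279, adjusted p = 0.000445). Ttc8, a tetratricopeptide repeat protein, stood at 8.32 and 7.15 CPM in control and 1.31 and 0.889 CPM in MOF cKO (log2 fold change -2.82, standard error 0.381, adjusted p = 0.00168). Bbs4, also built of tetratricopeptide repeats, stood at 12.9 and 13.2 CPM in control and 2.36 and 3.39 CPM in MOF cKO (log2 fold change -2.18, standard error 0.280, adjusted p = 0.00142). The control and MOF cKO libraries were several-fold apart for each of these subunits. Bbs5, which binds phosphoinositides of the membrane, stood at 6.03 and 5.70 CPM in control and 1.76 and 1.78 CPM in MOF cKO (log2 fold change -1.73, standard error 0.357, adjusted p = 0.00868). The call of Bbs5 was lost when any 1 library was left out, with adjusted p of 0.0426 without control replicate 1, 0.0277 without control replicate 2, 0.0132 without MOF cKO replicate 1 and 0.0110 without MOF cKO replicate 2.

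Bbip1, a small subunit needed for assembly of the complex, was not lower in MOF cKO. It stood at 11.6 and 11.8 CPM in control and at 13.4 and 14.6 CPM in MOF cKO. Its log2 fold change was 0.26 (standard error 0.183, 95% confidence interval -0.17 to 0.69, adjusted p = 0.301), and its interval holds 0. Both MOF cKO libraries lay above both control libraries, as they did for 34.9% of all genes, and with scaling by library size alone the fold change was -0.05. Bbip1 starts 78 bp from Shoc2, a gene on the opposite strand, and their annotated exons overlap over 97 bp. Shoc2 stood at 85.6 and 66.1 CPM in control and 96.7 and 74.4 CPM in MOF cKO, several times the level of Bbip1. Whether reads were counted by strand is not given in the sources used here. The counts include a class of ambiguous reads given to no gene, so reads in the shared stretch could be missing from Bbip1. The part of this overlap in the level of Bbip1 was not tested. Bbs4 shares 194 bp of exon with Adpgk on the opposite strand, and Adpgk was at 31.5 and 36.5 CPM in MOF cKO against 23.6 and 24.2 CPM in control.

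Of the 2 partners, Arl6 fell and Lztfl1 was not called. Arl6 stood at 7.73 and 10.2 CPM in control and 1.20 and 0.889 CPM in MOF cKO, 11.7% of control (log2 fold change -3.10, standard error 0.371, adjusted p = 0.00112). Its raw counts in MOF cKO were 24 and 21. Lztfl1 had the highest CPM of the 10 genes in every library and stood at 25.5 and 29.9 CPM in control and 20.2 and 18.7 CPM in MOF cKO. CPM is not scaled by exon length, and per kb of exon Lztfl1 ranked 4 of the 10 in E16.5 control and 3 in MOF cKO. Its log2 fold change of -0.51 (standard error 0.158, 95% confidence interval -0.88 to -0.14, adjusted p = 0.0385) was not called, though it was with scaling by library size alone (-0.81, adjusted p = 0.00550).

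**Figure D1:**
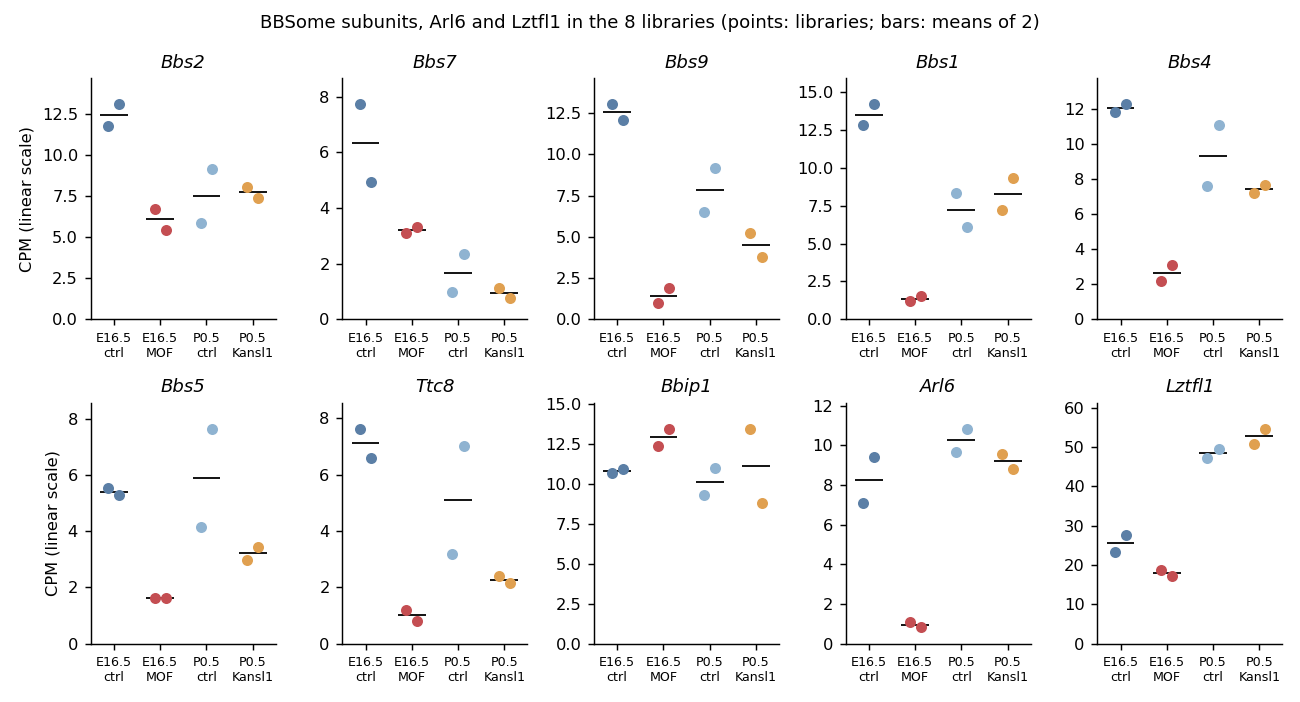
CPM of each of the 10 genes (linear axis from 0, scaled over all 8 libraries together) in the 4 groups, with a point for each library and a bar at the mean of 2. MOF cKO has the lowest group mean for 8 of the 10 genes, the exceptions being Bbs7 and Bbip1.

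Promoters are shown because 6 of the genes fell and 4 were not called. The windows come from RefSeq on GRCm38.p6, and all 10 genes were matched there with windows of 300 bases, from 250 before to 50 after each start. The X-box, which RFX factors bind at many ciliary genes, was searched on both strands as the letters GTTNCC and GGNAAC separated by 0 to 3 bases. These exact letters were found in 2 of the 10, Bbs7 and Lztfl1, neither of which was called in MOF cKO, and in 0.936% of 27025 genes. A site that departs from these letters would be missed, so the search does not show that the other genes lack an X-box. The following stretches, chosen after the values were seen, show Bbs7 and Lztfl1 with Bbs1 and Arl6, which fell, and Bbip1, which was not called. They run 5′ to 3′ on the minus strand from 200 bases before the RefSeq start, they end before the most upstream annotated start, and capitals mark the X-box pair.
Bbs1: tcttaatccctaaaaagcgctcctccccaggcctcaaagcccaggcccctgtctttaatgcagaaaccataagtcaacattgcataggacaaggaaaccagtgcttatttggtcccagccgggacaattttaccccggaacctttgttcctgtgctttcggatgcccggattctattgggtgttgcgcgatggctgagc
Arl6: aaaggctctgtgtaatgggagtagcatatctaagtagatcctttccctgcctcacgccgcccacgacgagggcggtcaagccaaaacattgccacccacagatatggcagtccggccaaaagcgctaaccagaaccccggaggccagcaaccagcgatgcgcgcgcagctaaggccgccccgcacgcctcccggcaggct
Bbip1: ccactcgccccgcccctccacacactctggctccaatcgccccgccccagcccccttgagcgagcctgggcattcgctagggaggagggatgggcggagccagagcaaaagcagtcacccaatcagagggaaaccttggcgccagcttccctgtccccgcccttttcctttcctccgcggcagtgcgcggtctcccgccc
Bbs7: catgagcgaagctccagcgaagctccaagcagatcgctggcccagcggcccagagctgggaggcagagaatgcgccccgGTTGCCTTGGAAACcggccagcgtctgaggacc
Lztfl1: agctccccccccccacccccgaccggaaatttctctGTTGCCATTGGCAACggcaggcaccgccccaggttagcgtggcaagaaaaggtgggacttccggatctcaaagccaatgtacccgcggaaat

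These stretches lie at chr19:4906629-4906827 for Bbs1, chr16:59639410-59639609 for Arl6, chr19:53944628-53944827 for Bbip1, chr3:36613478-36613589 for Bbs7 and chr9:123717698-123717825 for Lztfl1. Counted from the start, the Bbs7 match spans positions -121 to -108 and the upstream Lztfl1 match -164 to -150, where it overlaps a CCAAT box, and Lztfl1 holds another match at 7 to 21. The single letters GGNAAC were in 6 of the 10 windows (Bbs1, Bbs4, Bbs5, Bbs7, Bbip1 and Lztfl1) and in 48.8% of all genes. The GC box GGGCGG was in 6 of the 10 (Bbs7, Bbs9, Ttc8, Bbip1, Arl6 and Lztfl1) and in 38.2% of all genes, and CCAAT was in 4 of the 10 and in 41.1%. GC content of the windows ran from 50.3% for Bbs1 to 70.7% for Bbip1. A match describes letters in these windows and is not a measured site. In mm10, by the GENCODE M21 annotation and with the strand in parentheses, the subunit genes lie with Bbs1 at chr19:4886878-4906628 (minus), Bbs2 at chr8:94067954-94098928 (minus), Bbs4 at chr9:59321990-59353508 (minus), Bbs5 at chr2:69647171-69667571 (plus), Bbs7 at chr3:36573142-36613477 (minus), Bbs9 at chr9:22475715-22888280 (plus), Ttc8 at chr12:98920574-98983238 (plus) and Bbip1 at chr19:53929861-53944627 (minus). Of the partners, Arl6 lies at chr16:59612949-59639391 (minus) and Lztfl1 at chr9:123694416-123717697 (minus).

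Markers of other cells, in CPM scaled over all 8 libraries together, also differed between the E16.5 groups. Macrophage and Langerhans cell markers (7 listed) summed to 1.11 and 2.37 CPM in control and to 59.8 and 63.3 CPM in MOF cKO, and 5 of the 6 tested were called up. Hair placode and germ markers (5 listed) summed to 422 and 599 CPM in control and to 235 and 239 CPM in MOF cKO, and Shh, Edar and Lhx2 were called down. Suprabasal markers (4 listed) summed to 3498 and 2844 CPM in control and to 7773 and 8638 CPM in MOF cKO. The macrophage and suprabasal sums were thus higher, and the placode sum lower, in both MOF cKO libraries than in both controls. Dermal fibroblast markers (7 listed, 0 called) summed to 842 and 1435 CPM in control and to 1422 and 1982 CPM in MOF cKO. Endothelial markers (4 listed) summed to 5.36 and 5.51 CPM in control and to 9.40 and 18.9 CPM in MOF cKO, and Pecam1 was called up. Muscle markers (4 listed, 0 called) summed to 0.899 and 1.17 CPM in control and to 1.76 and 12.1 CPM in MOF cKO. The part of these cells in the fall of the BBSome genes was not tested. Markers of multiciliated cells (5 listed), which carry many motile cilia, summed to 1.40 to 2.19 CPM in control and to 0.232 to 0.273 CPM in MOF cKO, with Hydin at 0 in all 4 libraries and Rsph1 and Ccdc39 at 0 in both MOF cKO libraries. The 10 BBSome genes summed to 112 and 116 CPM in control and to 49.2 and 49.3 CPM in MOF cKO in the same scaling.

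Per kb of exon, the highest and lowest of the 8 subunits were closer to each other in E16.5 control than in the other groups. At P0.5 the wider range rested on Bbs7. In E16.5 control the highest subunit, Bbs2, was 2.48 and 4.32 times the lowest, Bbs7, in level per kb. In MOF cKO the ratio of the highest to the lowest was 18.0 and 15.4, with Bbip1 highest in both libraries and Bbs9 or Bbs1 lowest. Bbip1 made up 13.9% and 14.5% of the summed level per kb of the 8 subunits in E16.5 control and 39.7% and 42.3% in MOF cKO. At P0.5 the ratio was 11.6 and 7.13 in control and 14.8 and 15.6 in Kansl1 cKO, and the lowest subunit was Bbs7 in all 4 libraries. The next lowest subunit in P0.5 control stood at 0.841 (Ttc8) and 0.798 (Bbs1) CPM per kb, against 0.182 and 0.439 for Bbs7. In Kansl1 cKO it was Ttc8, at 0.634 and 0.571 against 0.208 and 0.144 for Bbs7. Bbs7 had 8 and 34 counts in P0.5 control and 21 and 9 counts in Kansl1 cKO, so its levels there are imprecise. These genes were lowly expressed: between 0 and 2 of the 10 lay above the median level per kb of 14436 genes in any library.

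**Figure D2:**
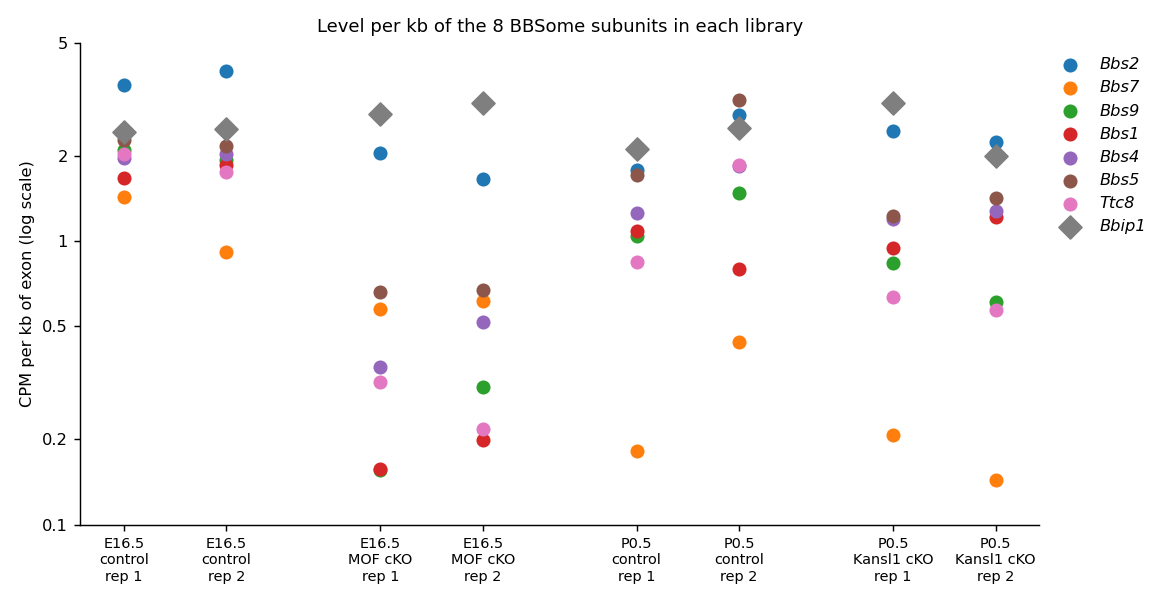
Level of each of the 8 BBSome subunits in CPM per kb of annotated exon (log axis) in each of the 8 libraries, with a colour for each subunit and a diamond for Bbip1. The points of E16.5 control replicate 1 lie within a 2.48-fold range, and in the MOF cKO libraries Bbip1 and Bbs2 stand above the other 6.

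Kansl1 cKO was compared with control at P0.5 to ask whether a subunit of the NSL complex has the same bearing on these genes. Under edgeR's quasi-likelihood test 0 of the 10 genes were called, and 0% of the 13031 genes tested, with an unadjusted p under 0.05 for 2045 genes. DESeq2 called 55 genes down and 35 up, and 0 of the 10 here. At an unadjusted p under 0.05, 3 of the 10 were lower (Ttc8, Bbs5 and Bbs9), beside 8.26% of all genes that were lower at that level. Without P0.5 control replicate 2, or without Kansl1 cKO replicate 2, 0 of the 10 had such a p. The libraries of the 2 groups did not overlap, with Kansl1 cKO lower, for 5 of the 10 genes and for 22.7% of all genes. The median log2 fold change of the 10 genes was -0.28, beside 0.01 over all genes, and -0.09 without P0.5 control replicate 2.

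The 3 genes with the lowest unadjusted p were higher in P0.5 control replicate 2 than in replicate 1, which was not particular to them. Of the 10 genes, Bbs1 alone went the other way, at 7.79 and 5.69 CPM in replicates 1 and 2. Bbs2 (5.50 and 8.53 CPM), Bbs4 (7.10 and 10.3 CPM) and Bbs7 (0.917 and 2.20 CPM) were among the rest. Ttc8 stood at 2.98 and 6.53 CPM in control and 2.18 and 1.98 CPM in Kansl1 cKO, 43.7% of control (log2 fold change -1.22, standard error 0.448, adjusted p = 0.279). Bbs5 stood at 3.90 and 7.11 CPM in control and 2.71 and 3.16 CPM in Kansl1 cKO (log2 fold change -0.93, standard error 0.389, adjusted p = 0.317). Bbs9 stood at 6.07 and 8.53 CPM in control and 4.75 and 3.48 CPM in Kansl1 cKO (log2 fold change -0.83, standard error 0.324, adjusted p = 0.298). Without P0.5 control replicate 2 the log2 fold changes were -0.54 for Ttc8, -0.45 for Bbs5 and -0.58 for Bbs9. That library was also the male one of the 4, and the part of sex in these values was not tested.

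The remaining genes were close to control in Kansl1 cKO or varied widely between libraries. Bbs1 stood at 7.79 and 5.69 CPM in control and 6.59 and 8.54 CPM in Kansl1 cKO (log2 fold change 0.17, 95% confidence interval -0.53 to 0.87). Arl6 stood at 9.05 and 10.1 CPM in control and 8.72 and 8.06 CPM in Kansl1 cKO (log2 fold change -0.19, 95% confidence interval -0.74 to 0.35). For both genes this interval excludes the log2 fold changes of -3.30 and -3.10 seen in MOF cKO. The intervals of Bbs2, Bbs4, Bbs9, Ttc8 and Lztfl1 also exclude their MOF cKO values. Such a comparison leaves out the error of the MOF cKO values, and the difference itself is tested further on. Bbs2 had a log2 fold change of 0.00 (95% confidence interval -0.71 to 0.70) and Bbs4 of -0.37 (-1.03 to 0.29). Bbip1 stood at 8.71 and 10.2 CPM in control and 12.3 and 8.06 CPM in Kansl1 cKO, and its groups overlapped. Lztfl1 stood at 44.3 and 46.1 CPM in control and 46.1 and 50.1 CPM in Kansl1 cKO, with the narrowest interval of the 10 (-0.27 to 0.45). Bbs7, at 0.917 and 2.20 CPM in control and 1.02 and 0.711 CPM in Kansl1 cKO, had the widest (-2.21 to 0.45).

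Markers of other cells also varied between the P0.5 libraries. Muscle markers (4 listed) summed to 202 CPM in P0.5 control replicate 1 and to between 2.50 and 4.10 CPM in the other 3. Melanocyte markers (5 listed) summed to 458 and 508 CPM in control and to 1002 and 1121 CPM in Kansl1 cKO. Dermal fibroblast markers (7 listed) summed to 1866 and 1175 CPM in control and to 1018 and 807 CPM in Kansl1 cKO. The melanocyte sum was thus higher, and the fibroblast sum lower, in both Kansl1 cKO libraries than in both controls. Macrophage and Langerhans cell markers (7 listed) summed to 139 and 170 CPM in control and to 232 and 250 CPM in Kansl1 cKO. Of these markers, Cd207 was at 0 in both libraries of each P0.5 group. T cell markers (3 listed) summed to 6.61 and 4.59 CPM in control and to 12.3 CPM in both Kansl1 cKO libraries. Endothelial markers (4 listed) summed to 7.22 and 2.92 CPM in control and to 1.60 and 1.29 CPM in Kansl1 cKO. Suprabasal markers overlapped between the groups, at 75350 and 41385 CPM in control and 44076 and 73453 CPM in Kansl1 cKO. The part of these cells in the levels of the BBSome genes was not tested.

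**Figure D3:**
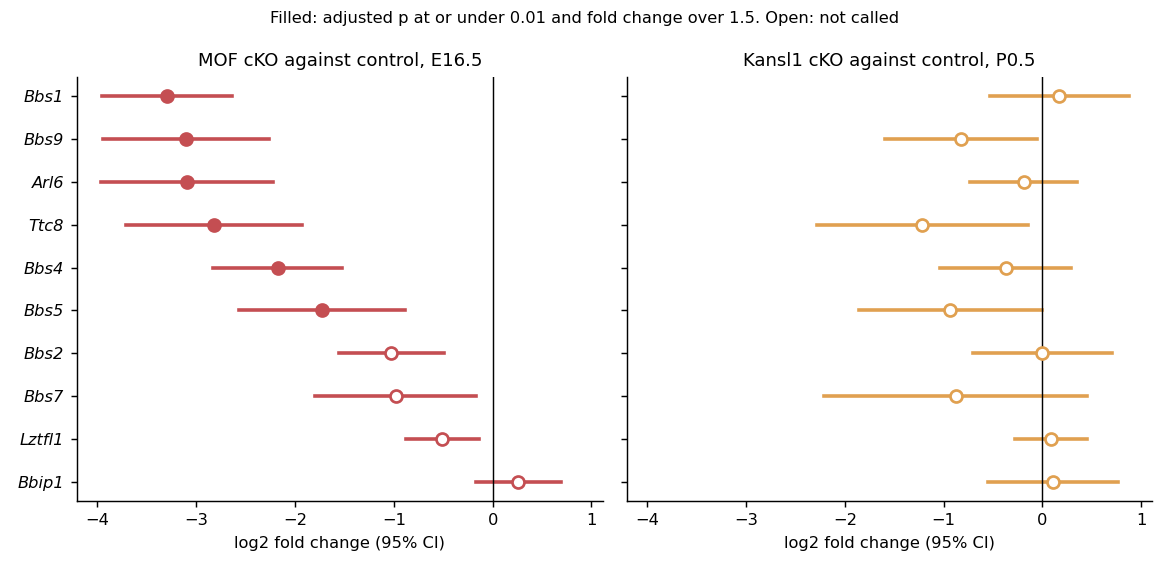
Log2 fold change (x axis, with its 95% confidence interval as a line) of each of the 10 genes in MOF cKO at E16.5 and in Kansl1 cKO at P0.5, ordered by the MOF value, with filled points for genes called. Of the MOF points 6 are filled, from -3.30 for Bbs1 to -1.73 for Bbs5, and 0 of the Kansl1 points are filled.

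The difference between the 2 effects was tested in a single fit over the 8 libraries, as the MOF effect minus the Kansl1 effect. It was called for Bbs1 at -3.50 on the log2 scale (standard error 0.397, adjusted p = 0.00222) and for Arl6 at -2.94 (standard error 0.397, adjusted p = 0.00416), the subunit and the GTPase that bind each other at the membrane. Of 14565 genes, 1.17% were called in this direction (170 against 256 in the other, or 245 and 219 with scaling by library size alone). Bbs9 at -2.30 (adjusted p = 0.0193) and Bbs4 at -1.84 (adjusted p = 0.0182) were not called at this threshold. For Ttc8 the difference was -1.63 (95% confidence interval -3.00 to -0.27, adjusted p = 0.104), and for Bbs5 -0.83 (-1.99 to 0.33, adjusted p = 0.308). So the fall of Ttc8 and Bbs5 in MOF cKO was not shown to differ from their values in Kansl1 cKO. Bbs1 stayed called without any 1 library. Arl6 lost its call at adjusted p of 0.0170 without E16.5 control replicate 2, 0.0113 without MOF cKO replicate 1, 0.0147 without MOF cKO replicate 2, 0.0169 without P0.5 control replicate 1 and 0.0132 without Kansl1 cKO replicate 1. By the paper, the MOF libraries were sequenced on a HiSeq and the Kansl1 libraries on a NovaSeq. Deleted gene, stage, isolation and sequencer cannot be told apart in this contrast.

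The controls of the 2 experiments were set against each other to give the levels of these genes without deletion. Lztfl1 was called higher in P0.5 control, at 53.3 and 54.8 CPM against 24.1 and 28.3 CPM in E16.5 control (2.06-fold, log2 difference 1.04, standard error 0.165, adjusted p = 0.00110). Of all 13859 genes, 22.2% were called up in this contrast (2436 down and 3070 up, or 4340 and 2089 with scaling by library size alone), and 0 of the 10 genes were called down in the same fit. Bbs7 was at 1.10 and 2.61 CPM in P0.5 control against 7.96 and 5.07 CPM in E16.5 control (log2 difference -1.74, standard error 0.476, adjusted p = 0.0145), a difference that was called at -2.56 (adjusted p = 0.00611) without P0.5 control replicate 2 and at -2.05 (adjusted p = 0.00160) without E16.5 control replicate 2. Bbs1 was at 9.36 and 6.76 CPM against 13.2 and 14.5 CPM (log2 difference -0.80, adjusted p = 0.0318). Bbip1 overlapped between the control groups, at 10.5 and 12.1 CPM against 11.0 and 11.2 CPM. Scaling by library size alone moved the median of all genes to -0.47 and the Lztfl1 difference to 0.59 (adjusted p = 0.0269), which ended its call. The same scaling called Bbs1 (-1.26, adjusted p = 0.00382) and Bbs7 (-2.17, adjusted p = 0.00411) down. In this contrast stage, isolation and sequencer cannot be told apart.

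Across the 4 groups, in 1 scaling over all 8 libraries, Bbs1, Bbs2, Bbs4, Bbs7, Bbs9 and Ttc8 had their highest mean CPM in E16.5 control. For Ttc8 the E16.5 control and P0.5 control libraries overlapped, as they did for Bbs5, which was highest in P0.5 control. Arl6 was highest in P0.5 control at 10.3 ± 0.837 CPM (SD, n = 2), followed by Kansl1 cKO at 9.20 ± 0.554 and E16.5 control at 8.26 ± 1.64, of which the last pair overlapped, and MOF cKO at 0.966 ± 0.206. Lztfl1 was highest in Kansl1 cKO at 52.7 ± 2.84 CPM and lowest in MOF cKO at 17.9 ± 1.03 CPM. Bbip1 had the narrowest span of group means, from 10.1 CPM in P0.5 control to 12.9 CPM in MOF cKO, with each group overlapping the next. The 5 genes outside the 10 whose CPM profile over the 8 libraries lay nearest to the median profile of the 10 were 1700030K09Rik, Cog6, Nipa1, Hes6 and Gpd1l. Their root mean square distance in log2 CPM, by which they were chosen, was 0.117 to 0.132, against a median of 0.821 over 14565 genes. Among the 10, Bbs4 (0.184) and Bbs5 (0.194) lay nearest to that median profile, of which they are part. Bbs7 (1.01) lay farthest, beyond the median distance of all genes, and Bbip1 (0.765) came next. The 8 libraries form 4 pairs, so this likeness rests on few independent points.

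The other genes of BBSome biology were counted in MOF cKO by list. Mkks, Bbs10 and Bbs12, chaperonin-like proteins that help assemble the BBSome, gave 0 of 3 called. Mkks stood at 26.4 and 24.5 CPM in control and 22.1 and 20.4 CPM in MOF cKO (log2 fold change -0.26, adjusted p = 0.203). Bbs12 had a log2 fold change of 0.07 (adjusted p = 0.894). Bbs10 had between 5 and 36 counts per E16.5 library and a log2 fold change of -0.80 (standard error 0.868). The CCT chaperonin, which works with them and folds tubulin and actin, had 5 of 8 subunits that rose, beside 10% of all genes called up. Cct8 was at 301 and 292 CPM in control and 536 and 521 CPM in MOF cKO (log2 fold change 0.83, standard error 0.0979, adjusted p = 0.00105), followed by Cct3 (0.79) and Cct4 (0.73). All 8 stayed higher, with a median of 0.36, when libraries were scaled by size alone, which moved the median of all genes to -0.32 and called 0 of them.

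Lists of other disease genes and of IFT held many genes that fell, beside 9.59% of all genes called down. Of 8 other genes of Bardet-Biedl syndrome, 6 fell, with a median log2 fold change of -1.29. Sdccag8, a centrosomal protein, was at 8.48 and 8.66 CPM in control and 0.402 and 1.48 CPM in MOF cKO (log2 fold change -3.15, adjusted p = 0.00427). Wdpcp, a planar cell polarity effector, had a log2 fold change of -2.95 and Ift74 of -2.09. Of the 17 IFT-B genes tested, which carry cargo toward the ciliary tip, 14 fell, with a median of -1.24, or 12 with DESeq2-type size factors. Ttc30b was down to 2 and 1 counts in MOF cKO, from 64 and 59, and Ttc26 (-4.12) and Ift57 (-3.58) followed it. Of the 6 IFT-A genes, which return cargo, 5 fell, with a median of -1.68, led by Wdr19 (-4.16), Ift122 (-2.35) and Ttc21b (-2.03). Ift27, Ift172 and Ift74 belong to both the Bardet-Biedl and the IFT-B list.

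Of 9 recruitment and transport regulators, 2 fell and 1 rose, with a median log2 fold change of -0.28, beside 9.59% of all genes called down and 10% called up. With scaling by library size alone 4 of these regulators and 2 of the cargo receptors were called down. Azi1, a centriolar satellite protein that binds the BBSome, was at 32.9 and 35.5 CPM in control and 12.8 and 13.6 CPM in MOF cKO (log2 fold change -1.38, adjusted p = 0.000821). Rabl2, a GTPase that works with IFT-B, had a log2 fold change of -1.29 (adjusted p = 0.00964). Rab11a, a GTPase of recycling endosomes, rose from 75.5 and 72.6 CPM to 150 and 134 CPM (log2 fold change 0.94, adjusted p = 0.00107, and 0.64 with scaling by library size alone). Of 8 cargo receptors listed, 4 were tested and Ptch1, the Hedgehog receptor, alone fell, from 384 and 454 CPM to 211 and 222 CPM (log2 fold change -0.95, adjusted p = 0.00123). In Kansl1 cKO 0 genes of any of these lists were called, and their medians lay between -0.30 and 0.08.

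**Figure D4:**
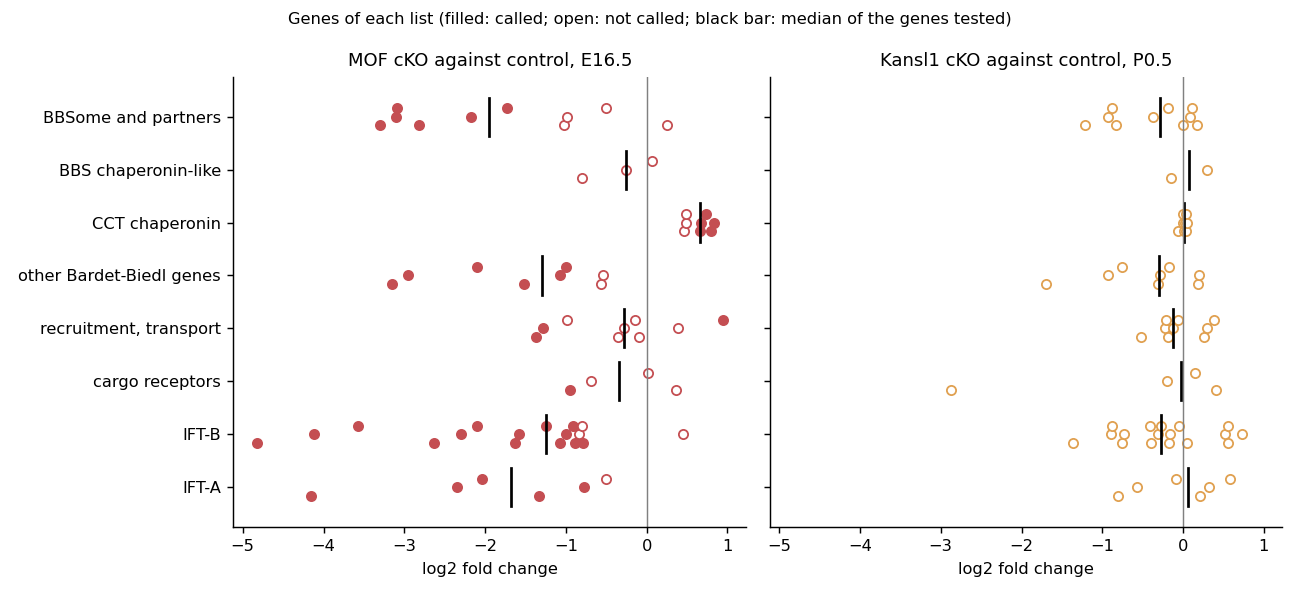
Log2 fold change (x axis) of each gene tested in the 8 lists, in MOF cKO at E16.5 and in Kansl1 cKO at P0.5, with filled points for genes called and a black bar at the median of each list. In MOF cKO the bars of the BBSome genes, IFT-B and IFT-A lie between -1.95 and -1.24 and that of the CCT chaperonin at 0.67, and in Kansl1 cKO every bar lies within 0.30 of 0.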

How the data were processed

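Polyadenylated RNA of 8 libraries was sequenced as 150 nt paired reads from directional libraries. The authors aligned reads to mm10, with HISAT2 by their methods and with TopHat2 by the submitters' processing notes, and counted them per gene with HTSeq. The deposited values are raw counts per gene symbol, without normalization. Annotation and strand setting are not given in the sources used here. Entries naming no gene held 21.1% to 26.0% of counts and were left out.

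Here edgeR 4.0.16 in R 4.3.3 was run on the whole table: filterByExpr, TMM factors, the quasi-likelihood test, and p-values adjusted by Benjamini-Hochberg over all genes tested. A gene was called where the adjusted p was no higher than 0.01 and the change more than 1.5-fold. Confidence intervals come from the same fit. Each experiment was fitted alone, the controls were fitted together, and the difference of effects used all 8 libraries. DESeq2 1.42.0, other scalings, filters, tests and thresholds, the replicate number as a block and leaving out each library were alternatives. Lengths are union exons of GENCODE M21 on mm10, matched for 98.2% of symbols, and promoters are RefSeq's on GRCm38.p6.

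Genes named are the 10 genes, the targeted genes, coding neighbours within 1000 bp or with shared exons, up to 3 called genes per list by size of change, every gene of lists of 3, and the 5 nearest profiles. The members and lists were chosen with earlier results of these data known. Counting precision is limited by depth at P0.5. Other data of the study were not analysed here.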

Additional observations from a re-analysis of the deposited data

Results flagged for a closer look

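The MOF effect and the Kansl1 effect differed, by the test of the difference itself, for 2 of the 10 genes. For Bbs1 the difference was -3.50 on the log2 scale, between a log2 fold change of -3.30 in MOF cKO and 0.17 in Kansl1 cKO, and it was called under 14 of 14 alternatives, where it ran from -3.73 to -3.28. For Arl6 the difference was -2.94, between -3.10 in MOF cKO and -0.19 in Kansl1 cKO. It was called under 8 of 14 alternatives, 3 of the 8 that left out a library among them, with values from -3.17 to -2.58 and adjusted p from 2.85e-06 to 0.0170 over edgeR and DESeq2. Deleted gene, stage, isolation and sequencer differ together between the 2 experiments and cannot be told apart.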

How the results depend on the processing

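Between 5 and 8 of the 10 genes were called down in MOF cKO over the alternatives (8 with library size alone, 5 in the test against the fold threshold), and 0 in Kansl1 cKO under all of them. In the main Kansl1 cKO fit the quasi-likelihood test called 0 of 13031 genes, with a lowest adjusted p of 0.110. The absence of calls there thus does not show that the 10 genes were unchanged. Leaving out a library leaves a group of 1, which was assumed to vary like the other groups. The median in MOF cKO was -2.26 with library size alone and ran from -2.10 to -1.84 without 1 library each. In the contrast of controls, library size alone called 2 genes, both down (Bbs1 and Bbs7), while DESeq2 and a filter of 1 count only called 2, with Bbs7 down and Lztfl1 up. There 3 were called at an adjusted p of 0.05 (2 down and 1 up), and 1 to 2 without 1 library each. For the difference of effects, 4 genes were called by DESeq2, with a filter of 1 count only and at an adjusted p of 0.05, and 1 to 2 without 1 library each. Of the fold changes of single genes in the 2 experiments, 220 kept direction and side of the threshold, 9 turned direction, 7 gained and 4 lost a call. Those that turned were not called: Bbip1 in MOF cKO (-0.047 with library size alone), and in Kansl1 cKO Bbs1 (-0.083 without P0.5 control replicate 2, and up to 0.40 without 1 library), Bbip1 (-0.27 without Kansl1 cKO replicate 1, and up to 0.37) and Bbs2. Bbs2 moved from 0.00 to 0.011 with a filter of 1 count only, 0.028 in a fit over all libraries, and from -0.27 to 0.33 without 1 library each. The causes were not tested. Over all genes, MOF cKO gave 2743 down and 769 up with library size alone, 426 and 502 in the test against the fold threshold, 2197 and 1837 with a filter of 1 count only, 2139 and 1908 in the likelihood ratio test and 2296 and 1943 at an adjusted p of 0.05. Kansl1 cKO gave 55 and 35 in DESeq2, 114 and 71 in the likelihood ratio test, 117 and 73 with a filter of 1 count only, and up to 197 and 76 without 1 library. For the difference of effects, 492 and 942 were called by DESeq2 and as few as 12 and 69 without P0.5 control replicate 1. That difference also gave 539 down and 1112 up with a filter of 1 count only, and 985 and 1026 at an adjusted p of 0.05. Over all genes, the contrast of controls gave 2485 down and 3344 up in DESeq2. It gave 3058 and 3431 with a filter of 1 count only, and 3350 and 3770 at an adjusted p of 0.05. The medians of the 8 gene lists in MOF cKO kept their sign under 3 other scalings. Bbs7 had the lowest counts of the 10 genes at P0.5, at 8 and 34 in control and 21 and 9 in Kansl1 cKO.

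The numbers of the replicates are shared between groups, and the pairing was checked by the correlation of deviations of same-numbered libraries, which was 0.21 in the MOF and -0.20 in the Kansl1 experiment. With the replicate number as a block, 7 genes were called in MOF cKO (median -1.96), 0 in Kansl1 cKO (median -0.26, and 0.036 for Bbs2), 1 between controls and 1 for the difference of effects, where Arl6 had an adjusted p of 0.0108. Over all genes the block moved the calls in MOF cKO from 1338 down and 1395 up to 2263 and 1903. A crossed pairing of the Kansl1 libraries, added after seeing the data, called 0 of the 10 genes and 1 gene in all.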
